A study of Mus musculus with 12 samples.

Results

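Polyadenylated RNA of Pabpn1l knockout (KO) and wild-type (WT) mouse embryos was compared at the 2-cell stage, across all 11298 complete gene entries of a table of expression values. The comparison uses 4 of the 12 libraries of the study, 2 from KO and 2 from WT 2-cell embryos, and every complete entry was a member, so no gene was chosen by its value. The other 8 libraries are 2 each of KO and WT germinal vesicle (GV) oocytes and of KO and WT 1-cell embryos, and serve here as reference levels. All mice were on the C57BL/6 background, the genotypes were labelled Pabpn1l-WT and Pabpn1l-KO, and embryos were cultured in KSOM medium without further treatment. Each library was made from 10 pooled oocytes or embryos by Smart-seq2, a full-length cDNA method that primes poly(A) tails with oligo-dT. The labels do not say whether KO refers to the mother, the embryo or both, how the knockout was made, or whether separate animals gave the libraries of a group. The p-values then measure only how far these libraries differ from each other, a spread that may be technical.

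PABPN1L binds poly(A) tails in mouse oocytes and early embryos and is related to the nuclear protein PABPN1. Growing mouse oocytes store a large pool of maternal mRNA, and much of it is deadenylated and degraded during maturation and after fertilization, in part by the CCR4-NOT deadenylase that the adaptor BTG4 brings to its targets. Transcription of the embryo's own genome starts at a low level in the 1-cell embryo and rises in a major wave at the 2-cell stage, when genes for ribosome formation, RNA processing and translation are strongly transcribed. A 2-cell library therefore holds leftover maternal transcripts beside new zygotic ones, and a level does not tell them apart.

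Values are FPKM as deposited, read fragments scaled to the length of the transcript and to the mapped total of the library. The lowest deposited value was 1 FPKM, called the floor, so a gene at the floor was at or under 1 FPKM or could not be estimated, and no fold is given against a group with both libraries there. Of the 11298 genes, 6980 were above the floor in at least 1 of the 4 2-cell libraries and 3949 in all 4. The KO libraries summed to 63553 and 64092 FPKM and the WT libraries to 53555 and 59307, a ratio of means of 1.13. Replicates correlated across genes at r = 0.971 in KO and 0.983 in WT. Before deposit each embryo library had been multiplied by a factor of its own, 0.130 and 0.121 in KO and 0.116 and 0.123 in WT 2-cell embryos, whose basis is not given in the sources used here. Before that factor the floor stood at 7.68 to 8.61 FPKM in 2-cell libraries, against 1 FPKM in oocytes. A 2-cell gene at the floor is therefore not shown to be absent. Comparisons were therefore made as deposited and again on a centred scale, with each library divided by its median over the genes above the floor in all 4. Across these 3949 genes KO exceeded WT by a median of 0.13 on the log2 scale as deposited and 0.18 after centring. In such pooled embryos, fewer cells with a transcript and less of it per cell cannot be told apart. Pabpn1l itself measured 1.002 and 1.902 FPKM in KO and 1.18 and 1 in WT, all at or near the floor, so it cannot check the labels at this stage.

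KO and WT 2-cell embryos differed in both directions. As deposited, 854 genes were higher in KO (7.56% of the genes tested) and 1357 were lower (12%), at a limma adjusted p under 0.05. Of these, 446 were at least 2-fold higher (3.95%) and 807 at least 2-fold lower (7.14%) on the log2(FPKM + 1) scale. On the centred scale 1215 genes were higher (10.8%) and 1542 lower (13.6%). Both scales called 841 genes higher (7.44%) and 1320 lower (11.7%), and 0 genes were called in opposite directions. Both WT libraries were at the floor for 87 of the higher genes, and both KO libraries were at the floor for 546 of the lower genes. Of the 6980 genes above the floor in at least 1 of the 4 libraries, 12.2% were higher and 19.4% lower as deposited. Their median log2 fold change was −0.05. Counts of the gene lists below are to be read against these shares as well as those of all genes. In GV oocytes 66 genes were higher in KO (0.584%) and 117 lower (1.04%).

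The counts depended on single libraries. Without KO replicate 2, 562 genes were higher and 878 lower. These counts were 464 and 1214 when WT replicate 1 was left out, 525 and 834 for WT replicate 2, and 581 and 1035 for KO replicate 1. Of the called genes, 377 of 854 higher and 750 of 1357 lower were called in the same direction with any 1 of the 4 libraries left out. Such a fit leaves 1 library in an arm, which is assumed to vary like the other groups of the fit. A fit of the 4 2-cell libraries alone, which estimates the spread from fewer samples, called 354 genes higher and 595 lower. When the test was restricted to mean levels of 5 FPKM and above, 637 genes were higher and 483 lower, so the excess of lower genes lay at low levels. Quantile normalization called 2971 higher and 2156 lower, so that higher genes made up 57.9% of the calls, against 38.6% as deposited and 56.9% above 5 FPKM.

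**Figure D1:**
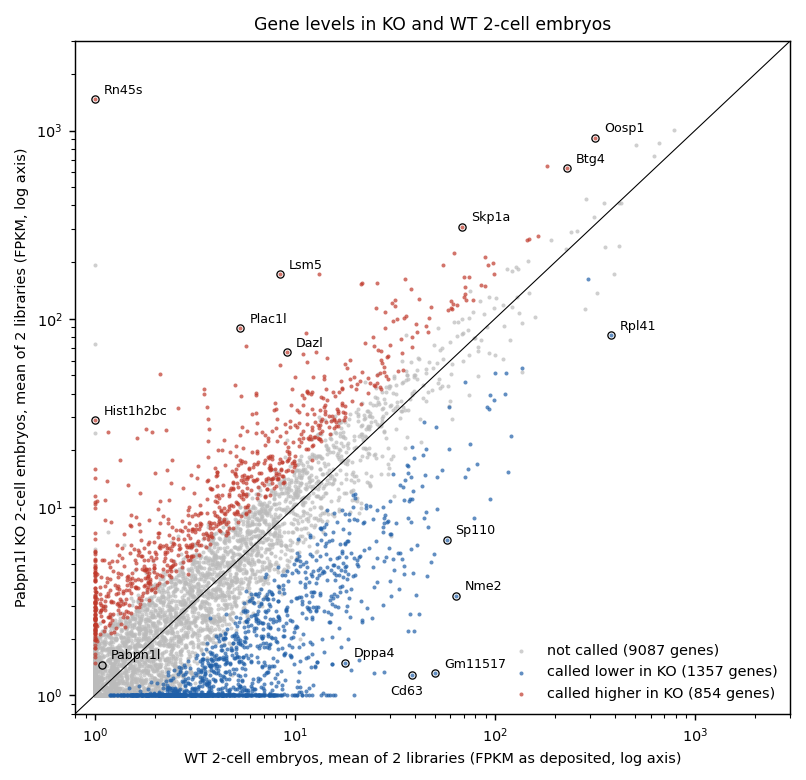
Mean FPKM of each of the 11298 genes in 2 WT (x axis) and 2 KO (y axis) 2-cell libraries, as deposited, on log axes; the line marks equal levels and circled genes are named in the text. The 854 genes called higher (red) lie above the line, the 1357 called lower (blue) lie below it, and many of the latter lie on the KO floor of 1 FPKM.

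The genes with the largest rises included abundant oocyte transcripts. Lsm5, a subunit of the LSM rings that act in mRNA decapping and in the U6 splicing particle, measured 158 and 187 FPKM in KO and 7.62 and 9.201 in WT (log2 fold change 4.20 ± 0.33, here and below ± SE, adjusted p = 3.44e-05). Each SE rests on 2 libraries a group and on a spread pooled over all 6 groups of oocytes and embryos. Tm2d1, which encodes a transmembrane protein, measured 40.04 and 61.4 FPKM in KO and 2.26 and 1.96 in WT (4.03 ± 0.32, adjusted p = 3.79e-05). Plac1l, of the family of oocyte-secreted proteins, measured 92.7 and 85.9 FPKM in KO and 5.17 and 5.53 in WT (3.83 ± 0.22, adjusted p = 6.46e-06). In each of these genes both KO libraries lay above both WT libraries, which was a condition for naming genes by size of change. WT GV oocytes held a mean of 399 FPKM of Lsm5, 350.0 of Tm2d1 and 1335 of Plac1l. Oocyte libraries carry a factor of 1, so levels of oocytes and 2-cell embryos are not on a shared scale and no share of the oocyte level is given. Further large rises were those of the calcium-binding protein gene Pdcd6 (3.54 ± 0.33), the lens-protein gene Lgsn (3.28 ± 0.21), the unnamed locus 7420461P10Rik (3.43 ± 0.23) and the complex I subunit gene Ndufb3 (3.27 ± 0.25). Gm15698 measured 92.01 and 254 FPKM in KO and 12.9 and 13.6 in WT (3.43 ± 0.39), and its call ended in the fit of 4 libraries (adjusted p = 0.0755).

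Among abundant transcripts, Oosp1, which encodes an oocyte-secreted protein, measured 888 and 940.3 FPKM in KO and 318 and 318 in WT (1.52 ± 0.23, adjusted p = 0.00168). Btg4 measured 650.3 and 612 FPKM in KO and 256 and 199.8 in WT (1.47 ± 0.23, adjusted p = 0.00202). Skp1a, a core subunit of SCF ubiquitin ligases, measured 322 and 296 FPKM in KO and 76.1 and 61.1 in WT (2.16 ± 0.20, adjusted p = 9.29e-05). KO libraries were again above WT libraries without overlap, by 2.87, 2.77 and 4.51 times in the means. Gm97 behaved alike, at 599 and 691 FPKM in KO and 217 and 147 in WT (1.84 ± 0.29). In the fit of 4 libraries the calls of Oosp1 (adjusted p = 0.184), Btg4 (adjusted p = 0.127) and Gm97 (adjusted p = 0.0983) ended.

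Of 7 structural RNAs without a regular poly(A) tail in the table, 3 were higher in KO, 0 were lower and 4 were not called. The higher share was 42.9%, against 7.56% over all genes and 12.2% over genes above the floor in at least 1 2-cell library. Without these 3, the summed level of the list was higher in KO replicate 2 than in KO replicate 1, so no median is given. Rn45s, the precursor of the ribosomal RNAs, measured 1603 and 1325 FPKM in KO and lay at the floor in WT. Rnu11, a small nuclear RNA of the minor spliceosome, measured 17.3 and 11.3 FPKM in KO and also lay at the WT floor. Vaultrc5, a vault RNA, measured 40.5 and 48.2 FPKM in KO and 4.73 and 5.2995 in WT (2.91 ± 0.30, adjusted p = 0.000199). Ribosomal DNA is present in many near-identical copies and such RNAs are captured irregularly by oligo-dT priming, so these levels are uncertain. Hist1h2bc, of the H2B histone genes that share much of their sequence, was likewise at the floor in WT and at 24.4 and 33.6 FPKM in KO.

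Oocyte-specific and maternal-effect genes were higher in KO more often than lower. Among 62 measured members, 31 were called higher and 5 lower, or 50% and 8.06%, and their median log2 fold change was 0.75, against 0 over all genes. The largest rise was that of the oocyte transcript E330017A01Rik, at 28.8 and 38.7 FPKM in KO and 2.69 and 2.53 in WT (3.25 ± 0.23). Obox1, an oocyte homeobox gene, measured 44.6 and 74.01 FPKM in KO and 11.9 and 11.2 in WT (2.22 ± 0.26), and its call ended in the fit of 4 libraries (adjusted p = 0.0555). Other members, named after their values were seen, rose by smaller factors. Npm2, a histone chaperone of the oocyte nucleus, measured 58.99 and 55.9 FPKM in KO and 17.9 and 17.9 in WT (1.63 ± 0.15). Nlrp5, a core member of the subcortical maternal complex also called Mater, measured 9.71 and 8.58 FPKM in KO and 5.17 and 4.87 in WT (0.75 ± 0.15). Bmp15, an oocyte growth factor, measured 124 and 146 FPKM in KO and 70.3 and 72.3 in WT (0.91 ± 0.17). In all 3 the KO libraries lay above the WT libraries without overlap. The 5 lower members were Obox3, Obox6, Rfpl4b, Tcl1b4 and Tcl1b1, of which Obox3 and Obox6 were at 2.52 FPKM and at the floor in WT oocytes and were higher in WT 2-cell embryos than in WT oocytes or 1-cell embryos. Without KO replicate 2, WT replicate 1 or WT replicate 2 the members called higher numbered 15, 16 and 17, and 11 in the fit of 4 libraries. Paralogs of the Obox, Nlrp4 and Fbxw families are similar in sequence, so reads may be split between them.

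Of 55 deadenylation and mRNA decay genes 9 were higher and 4 lower as deposited (16.4% and 7.27%), and 10 and 9 on the centred scale, with a median of 0. Beside Lsm5 and Btg4, Lsm14b, which encodes an mRNA storage protein of oocytes, measured 6.63 and 4.55 FPKM in KO and 1.28 and 1.37 in WT (1.48 ± 0.20), a call that ended in the fit of 4 libraries (adjusted p = 0.0574). Lsm2, a ring partner of Lsm5, measured 6.89 and 8.69 FPKM in KO and 24.1 and 31.4 in WT (−1.70 ± 0.20, adjusted p = 0.000388). Members of the same ring thus moved in opposite directions. The count of 4 lower genes was 2 without KO replicate 2 and 2 without WT replicate 2, and the count of 9 higher genes was 2 in the fit of 4 libraries.

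Of 8 poly(A)-binding proteins and interactors 2 were higher and 3 lower (25% and 37.5%), with a median of −0.13. Pabpn1, the nuclear relative of Pabpn1l, measured 10.3 and 9.78 FPKM in KO and 26.5 and 28.7 in WT (−1.38 ± 0.24, adjusted p = 0.00316). Pabpc1, the general cytoplasmic poly(A)-binding protein, measured 2.91 and 1.63 FPKM in KO and 8.08 and 11.96 in WT (−1.76 ± 0.26), and Paip1, its partner in translation, measured 84.7 and 104 in KO and 41.1 and 39.2 in WT (1.20 ± 0.23). The Pabpc1 and Paip1 calls ended in the fit of 4 libraries (adjusted p = 0.0802 and 0.0503). Of 34 genes of translational control and cytoplasmic polyadenylation 5 were higher and 3 lower as deposited (14.7% and 8.82%), and 11 and 4 on the centred scale. Dazl, a germline RNA-binding protein that promotes translation, measured 54.8 and 77.9 FPKM in KO and 8.68 and 9.56 in WT (2.72 ± 0.23, adjusted p = 5.27e-05), again without overlap. Without KO replicate 2, WT replicate 1 or WT replicate 2 the higher genes of this list numbered 1, 1 and 2, and without KO replicate 2 or WT replicate 2 the lower ones numbered 1.

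**Figure D2:**
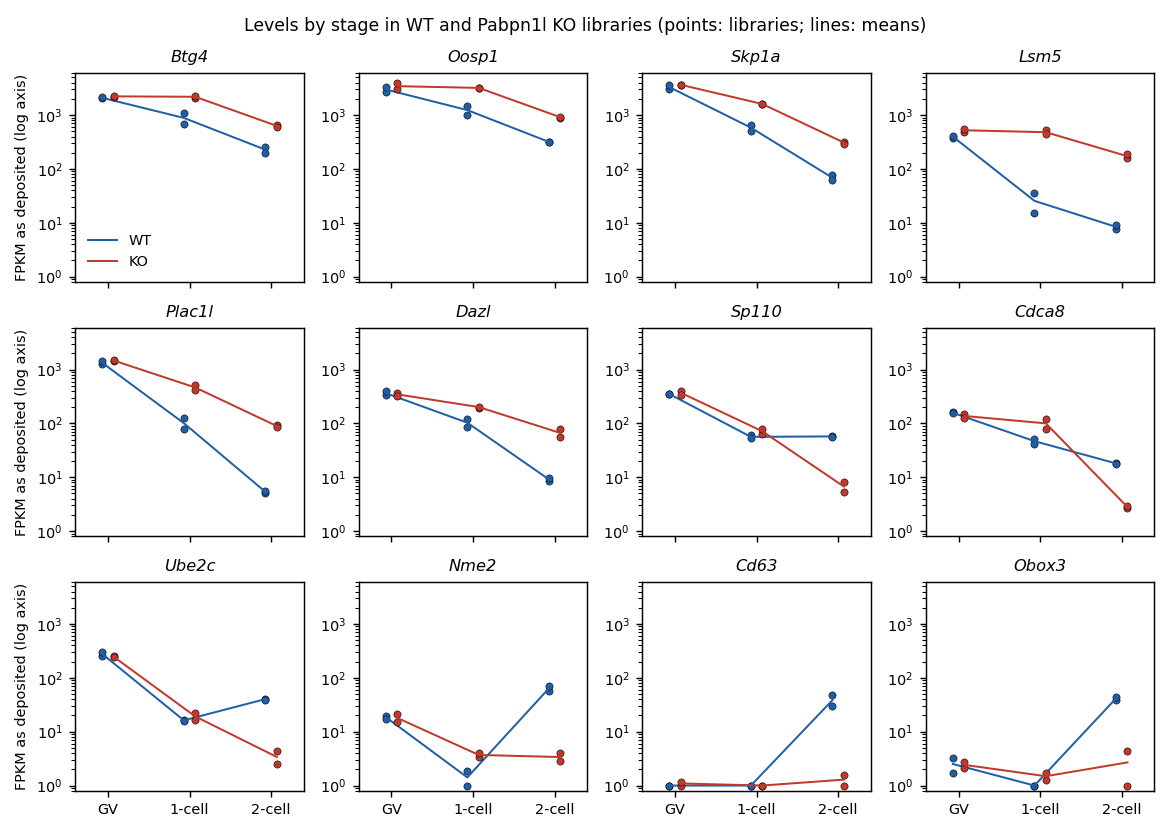
FPKM as deposited (log axis) of 12 genes in the 2 WT (blue) and 2 KO (red) libraries of GV oocytes, 1-cell and 2-cell embryos; points are libraries and lines join group means. On this scale, which carries the library factors, Lsm5 and Plac1l were higher in KO than in WT at the 1-cell and the 2-cell stage, and Nme2, Cd63 and Obox3 were low in KO at the 2-cell stage, where WT was higher than in oocytes.

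The largest falls were of genes with a low WT oocyte level and of genes with an oocyte transcript. Of the former kind, Gm11517 measured 1.63 and 1 FPKM in KO and 41.7 and 58.9 in WT (−4.46 ± 0.17, adjusted p = 7.74e-07). Cd63, a tetraspanin of late endosomes and extracellular vesicles, measured 1 and 1.58 FPKM in KO and 29.4 and 47.9 in WT (−4.09 ± 0.20, adjusted p = 2.90e-06). Guca1a, a guanylate cyclase activator best known from photoreceptors, measured 1.65 and 1 FPKM in KO and 25.4 and 30.3 in WT (−3.64 ± 0.14, adjusted p = 7.00e-07). These 3 genes were at the floor in WT oocytes and in WT and KO 1-cell embryos, and at or near it in both KO 2-cell libraries. Groups with both libraries at the floor add no spread to the pooled estimate. The SE and adjusted p of such genes may therefore be too small. Obox3 measured 4.38 and 1 FPKM in KO and 38.9 and 44.2 in WT (−3.70 ± 0.40), Gm4850 3.42 and 1 and 37.9 and 35.5 (−3.66 ± 0.30). H47, also called selenoprotein S, of the endoplasmic reticulum, measured 1.63 and 1 FPKM in KO and 15.5 and 34.1 in WT (−3.39 ± 0.32). KO replicate 2 was at the floor for Obox3, Gm4850 and H47, and their calls ended in the fit of 4 libraries (adjusted p = 0.0667, 0.053 and 0.058).

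Promoters are shown for genes of this kind, whose WT oocyte level was low. Of the 6 genes with the largest falls and a WT oocyte level under 5 FPKM, 4 had a promoter in the RefSeq table, 250 bases before to 50 after the transcription start in build GRCm38.p6, which is not the mm9 build of the expression values. The sequences run 5′ to 3′ on the gene's strand, and capitals mark TAATCC or its complement GGATTA, the core that paired-like homeobox proteins such as the OBOX family are known to bind. Cd63 lies at chr10:128909095-128909394 (+), Obox3 at chr7:15639728-15640027 (−), Guca1a at chr17:47400557-47400856 (−) and H47 at chr7:66079399-66079698 (+).
Cd63: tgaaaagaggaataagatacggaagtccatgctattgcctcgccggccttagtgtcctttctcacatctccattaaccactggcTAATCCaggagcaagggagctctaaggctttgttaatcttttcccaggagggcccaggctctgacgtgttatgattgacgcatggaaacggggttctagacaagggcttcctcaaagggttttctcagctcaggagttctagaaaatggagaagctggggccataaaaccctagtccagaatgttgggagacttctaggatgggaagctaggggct
Obox3: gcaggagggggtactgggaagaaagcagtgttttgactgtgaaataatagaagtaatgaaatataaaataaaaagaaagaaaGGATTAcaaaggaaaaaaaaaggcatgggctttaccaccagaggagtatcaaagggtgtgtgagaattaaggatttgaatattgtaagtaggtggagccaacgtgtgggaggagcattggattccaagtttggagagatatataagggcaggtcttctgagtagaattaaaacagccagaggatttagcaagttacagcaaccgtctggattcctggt
Guca1a: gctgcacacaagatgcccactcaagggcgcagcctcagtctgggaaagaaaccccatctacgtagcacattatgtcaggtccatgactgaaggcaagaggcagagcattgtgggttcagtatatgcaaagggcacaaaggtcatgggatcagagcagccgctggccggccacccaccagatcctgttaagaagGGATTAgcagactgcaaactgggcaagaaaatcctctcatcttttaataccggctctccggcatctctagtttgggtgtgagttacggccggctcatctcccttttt
H47: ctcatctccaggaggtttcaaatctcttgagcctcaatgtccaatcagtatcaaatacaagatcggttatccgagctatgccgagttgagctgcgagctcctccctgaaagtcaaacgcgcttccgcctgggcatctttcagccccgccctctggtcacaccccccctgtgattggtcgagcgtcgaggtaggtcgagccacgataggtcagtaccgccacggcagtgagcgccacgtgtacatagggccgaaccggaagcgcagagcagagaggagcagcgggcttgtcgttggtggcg
The letters were found 166 bases before the start of Cd63, 168 before that of Obox3 and 57 before that of Guca1a, and were not in the H47 window. Over both strands, TAATCC was in 12.1% of the 140 available promoters of genes called lower and at the floor in WT oocytes, 7.19% of those of all lower genes, 5.31% of those of higher genes, 5.91% of those of all genes of the table and 7.06% of all RefSeq promoters. In lower genes with at least 20 FPKM in WT oocytes its share was 6.06%. In all, 8 motifs were searched in the same way. The ETS motif CCGGAAG was in 25.7% of the promoters of lower genes and 33.7% of those of lower genes with at least 20 FPKM in WT oocytes, against 18.7% of higher genes, 18.5% of the table and 8.86% of all promoters. In lower genes at the floor in WT oocytes its share was only 8.57%, so neither motif was common to lower genes of both kinds. CCAAT was in 46.5% of lower, 36.0% of higher and 40.04% of all genes' promoters of the table (37.4% of all promoters), and GGGCGG in 63.0%, 60.5% and 61.4% (35.7%). Of the others, TATAAA was in 8.38% of lower and 8.75% of higher, CACGTG in 11.6% and 11.5%, AAGATGGC in 6.38% and 4.30% and AGGTCA in 12.9% and 14.8%. Their shares over all promoters were 13.6%, 7.15%, 2.75% and 16.3%. These are matches of letters, which may overlap, and not binding sites.

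Lower genes with an oocyte transcript included Nme2, a nucleoside diphosphate kinase, at 3.95 and 2.81 FPKM in KO and 58.2 and 69.8 in WT (−3.90 ± 0.24, adjusted p = 7.36e-06). Snrpc, a protein of the U1 splicing particle, measured 3.76 and 1.63 FPKM in KO and 43.5 and 31.7 in WT (−3.43 ± 0.26, adjusted p = 3.17e-05), and Cdk2ap1, a subunit of the NuRD chromatin complex, 2.93 and 1.45 and 31.6 and 46.9 (−3.67 ± 0.31, adjusted p = 5.92e-05). KO and WT did not overlap in these genes, again a condition for naming genes by size of change. Nme2 had a mean of 18.7 FPKM in WT oocytes and 1.41 FPKM in WT 1-cell embryos. Gm9786, the remaining gene named by size, measured 1 and 10.3 FPKM in KO and 61.8 and 37.3 in WT (−3.37 ± 0.92, adjusted p = 0.0314) and was not called without KO replicate 1 or without either WT library (adjusted p = 0.243, 0.226 and 0.137).

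Genes that are transiently active at the 2-cell stage were lower in KO for 16 and higher for 3 of 36 in the table. These shares of 44.4% and 8.33% stood beside 19.4% and 12.2% of genes above the floor in at least 1 2-cell library. The median log2 fold change was −0.62. Sp110, a nuclear body protein, measured 8.01 and 5.42 FPKM in KO and 59.1 and 55.6 in WT (−2.94 ± 0.19, adjusted p = 1.24e-05), and was abundant in WT oocytes at 351 FPKM, with 56.3 FPKM in WT 1-cell embryos. Dppa4, a chromatin protein that with Dppa2 promotes the 2-cell programme in mouse embryonic stem cells, measured 1.84 and 1.14 FPKM in KO and 16.8 and 18.7 in WT (−2.93 ± 0.18, adjusted p = 9.20e-06). Pramel7, of the PRAME-like genes, measured 1.28 and 1 FPKM in KO and 7.299 and 9.95 in WT (−2.16 ± 0.12, adjusted p = 4.65e-06). Both KO libraries were below both WT libraries in all 3. Fbxo15, an F-box gene of pluripotent cells, was at 7.31 and 4.11 FPKM in KO and 27.9 and 37.8 in WT (−2.36 ± 0.30), a call that ended in the fit of 4 libraries (adjusted p = 0.0589). The 3 higher members were C87414, C87499 and D5Ertd577e, named after their values were seen. The most abundant of these, C87414, measured 45.9 and 52.3 FPKM in KO and 12.5 and 12.1 in WT (1.91 ± 0.23), so the list did not move as a block. The summed FPKM of the list was 302 and 394 in KO and 399 and 393 in WT. Without KO replicate 2 the higher members numbered 6, and the fit of 4 libraries called 9 lower.

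Ribosomal protein genes were lower in KO. Of 49 genes of the large subunit 33 were lower and 2 higher (67.3% and 4.08%), with a median of −1.24. Of 33 genes of the small subunit 24 were lower and 1 higher (72.7% and 3.03%), with a median of −1.45. Rpl41, among the most abundant lower genes, measured 115 and 48.8 FPKM in KO and 343 and 419 in WT (−2.32 ± 0.37), Rplp1 49.7 and 30.4 and 109 and 117 (−1.51 ± 0.22). Rps26, of the small subunit, measured 25.2 and 8.74 FPKM in KO and 76.9 and 85.1 in WT (−2.36 ± 0.37). KO replicate 2 was the lower of the KO libraries in each of these genes, and no KO value reached a WT value. The spread between KO libraries bears on the test. The fit of 4 libraries called 5 large-subunit and 1 small-subunit genes lower, and in it the calls of Rpl41, Rplp1 and Rps26 ended (adjusted p = 0.114, 0.0904 and 0.131). Without WT replicate 2 the lower small-subunit genes numbered 14. The 3 higher genes, named after their values were seen, were Rpl32, Rpl5 and Rps2, and without KO replicate 1 or WT replicate 1 neither of the large-subunit genes was called, while 1 was without KO replicate 2 or WT replicate 2. Ribosomal proteins have many processed pseudogenes, which can take up reads.

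Nucleolar ribosome biogenesis factors followed the same direction, with 39 of 84 lower (46.4%), 4 higher (4.76%) and a median of −0.56. Nhp2, of the particles that guide RNA pseudouridylation, measured 1.29 and 1.44 FPKM in KO and 15.1 and 23.2 in WT (−3.06 ± 0.21, adjusted p = 1.49e-05). Polr1c, a subunit shared by RNA polymerases I and III, measured 1.06 and 1 FPKM in KO and 13.3 and 14.3 in WT (−2.86 ± 0.19, adjusted p = 1.22e-05). Fcf1, of the small-subunit processome, measured 3.22 and 2.79 FPKM in KO and 24.3 and 30.7 in WT (−2.82 ± 0.23, adjusted p = 4.06e-05). Rrp9 was at the floor in both KO libraries and at 8.81 and 8.03 FPKM in WT. All 4 separated KO from WT without overlap. Of these, Fcf1 had been abundant in WT oocytes (578 FPKM) and Polr1c not (9.53 FPKM). The 4 higher genes, named after their values were seen, were Npm1, Polr1d, Lyar and Mphosph10, and without KO replicate 2 or WT replicate 1 none was called, while 2 were without either other library. The fit of 4 libraries called 19 lower and 0 higher.

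**Figure D3:**
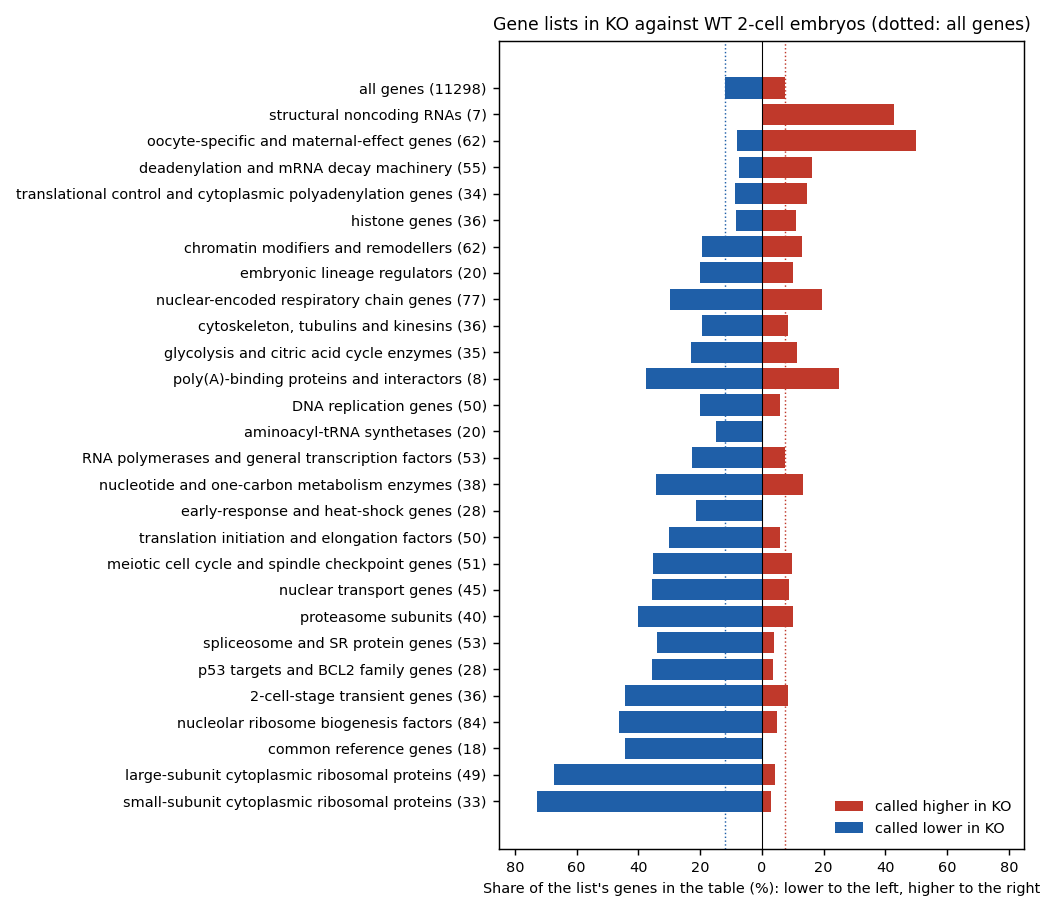
Share of the genes of each list in the table that were called higher (red, to the right) or lower (blue, to the left) in KO 2-cell embryos, with the number of genes in brackets; dotted lines mark the shares over all 11298 genes, 7.56% and 12%. Oocyte-specific genes extend furthest to the right among lists of more than 10 genes, at 50%, and ribosomal proteins of the small and large subunit furthest to the left, at 72.7% and 67.3%.

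Other genes of RNA synthesis and translation were also lower more often than higher, as were all genes (12% and 7.56%). Of genes above the floor in at least 1 2-cell library 19.4% were lower and 12.2% higher. Of 53 RNA polymerase and general transcription factor genes 12 were lower and 4 higher (22.6% and 7.55%, median −0.28), with the lower share near that 19.4%. The counts were 18 and 2 of 53 spliceosome genes (34.0% and 3.77%, median −0.25) and 16 and 4 of 45 nuclear transport genes (35.6% and 8.89%, −0.27). Of 50 translation factors 15 were lower and 3 higher (30% and 6%, −0.32). The RNA polymerase II subunit gene Polr2e measured 1.03 and 1.901 FPKM in KO and 15.3 and 15.4 in WT (−2.76 ± 0.21, adjusted p = 3.18e-05). The mRNA export helicase gene Ddx39 was at the floor in KO and at 16.9 and 14.8 FPKM in WT. Kpna1, which encodes an importin alpha and was at the floor in oocytes, was at the floor in KO and at 5.904 and 5.43 FPKM in WT. Eif3h, of the initiation factor eIF3, measured 4.13 and 2.76 FPKM in KO and 14.6 and 16.97 in WT (−1.93 ± 0.20, adjusted p = 0.000209). Against this direction, Eif1b measured 33.3 and 47.8 FPKM in KO and 9.56 and 13.7 in WT (1.72 ± 0.22), a call that ended in the fit of 4 libraries (adjusted p = 0.0716). Of 20 aminoacyl-tRNA synthetase genes 3 were lower (15%) and 0 higher, with a median of 0. Aimp2, a scaffold of the synthetase complex, was at the floor in KO and at 10.2 and 13.3 FPKM in WT. Without WT replicate 2 the lower transcription genes numbered 7 and the lower spliceosome genes 11, 1 spliceosome gene was higher without KO replicate 1, WT replicate 1 or WT replicate 2, without KO replicate 1 the lower transport genes numbered 10, and the higher transport genes numbered 1 without KO replicate 2, WT replicate 1 or WT replicate 2. On the centred scale 7 transcription genes and 7 translation factors were higher. Without WT replicate 2, 5 translation factors were higher. Polr2f, one of the most abundant lower genes, measured 46.02 and 57.4 FPKM in KO and 97.5 and 131 in WT (−1.12 ± 0.22) and was not called without WT replicate 2 (adjusted p = 0.0573).

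Of 51 meiotic cell cycle and spindle genes 18 were lower and 5 higher (35.3% and 9.80%, median −0.20). Over genes above the floor in at least 1 2-cell library these shares were 19.4% and 12.2%. Ube2c, the ubiquitin-conjugating enzyme of the anaphase-promoting complex, measured 4.31 and 2.48 FPKM in KO and 41.1 and 39.5 in WT (−3.26 ± 0.22, adjusted p = 1.41e-05). Cdk1, the main mitotic kinase, measured 1.88 and 1 FPKM in KO and 12.4 and 12.9 in WT (−2.51 ± 0.21, adjusted p = 5.84e-05). Cdca8, which encodes Borealin of the chromosomal passenger complex, measured 2.72 and 2.87 FPKM in KO and 18.4 and 17.7 in WT (−2.33 ± 0.21, adjusted p = 7.27e-05). KO and WT did not overlap in these genes. Cdca8 and Ube2c were oocyte transcripts, at 157 and 278 FPKM in WT GV. The lower genes numbered 9 without KO replicate 2, 11 without either WT library, and the higher genes numbered 3, 2, 3 and 2 without KO replicate 1, KO replicate 2, WT replicate 1 and WT replicate 2.

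Of 50 DNA replication genes 10 were lower and 3 higher (20% and 6%, median −0.10), and of 62 chromatin modifiers 12 and 8 (19.4% and 12.9%, −0.02). Both lower shares were near the 19.4% of genes above the floor in at least 1 2-cell library. Cdc45, a subunit of the replicative helicase, measured 1.11 and 1.06 FPKM in KO and 11.8 and 11.8 in WT (−2.62 ± 0.22, adjusted p = 5.52e-05). The histone deacetylase genes Hdac1 and Hdac2 moved in opposite directions, with Hdac1 at 1.04 and 1 FPKM in KO and 6.09 and 6.58 in WT (−1.86 ± 0.20) and Hdac2 at 13.01 and 16.6 and 3.698 and 4.52 (1.62 ± 0.19). Kdm5b, a histone demethylase, measured 1.26 and 1 FPKM in KO and 4.98 and 5.73 in WT (−1.58 ± 0.09). WT oocytes held 7.25 FPKM of Hdac1, 1.56 of Kdm5b and 53.7 of Hdac2. Of 36 histone genes, 21 at the floor in all 4 libraries, 4 were higher and 3 lower (11.1% and 8.33%). The variant H2afv measured 1.59 and 1.399 FPKM in KO and 12.5 and 13.5 in WT (−2.48 ± 0.16). The counts of replication and chromatin genes rested on few libraries. Without KO replicate 1, KO replicate 2, WT replicate 1 and WT replicate 2, the lower replication genes numbered 6, 5, 6 and 4. The higher replication genes numbered 1 without KO replicate 1, KO replicate 2 or WT replicate 1. The lower chromatin genes numbered 6, 4 and 3 without KO replicate 1, KO replicate 2 and WT replicate 2, and the higher ones 3, 4 and 5 without KO replicate 2, WT replicate 1 and WT replicate 2. The higher histone genes numbered 2 without either WT library. Of 36 cytoskeletal genes 7 were lower and 3 higher (19.4% and 8.33%), with the lower share again near that of genes above the floor. Among them were the tubulin Tubb4b, at 5.13 and 2.98 FPKM in KO and 30.1 and 29.4 in WT (−2.64 ± 0.28), and the actin-binding thymosin Tmsb4x, at 31.2 and 21.1 in KO and 3.29 and 4.18 in WT (2.50 ± 0.20). Tmsb4x is a case of a higher gene with a low oocyte level, at 1.77 FPKM in WT GV and at the floor in 1-cell embryos of both genotypes. The lower cytoskeletal genes numbered 4 without KO replicate 1 and 3 without WT replicate 1.

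Energy and protein turnover genes were divided. Of 77 nuclear-encoded respiratory chain genes 23 were lower and 15 higher (29.9% and 19.5%), with a median of −0.19. Cox4i1, a subunit of cytochrome c oxidase, measured 6.26 and 4.34 FPKM in KO and 30.1 and 38.8 in WT (−2.50 ± 0.21, adjusted p = 6.12e-05). Atp5o, of the ATP synthase, measured 1.11 and 1 FPKM in KO and 8.87 and 14.001 in WT (−2.56 ± 0.24, adjusted p = 0.000114). Ndufb3, of complex I, measured 40.1 and 44.8 FPKM in KO and 2.89 and 4.17 in WT (3.27 ± 0.25, adjusted p = 3.14e-05), in the opposite direction. Subunits of the same machinery thus lay on both sides. The lower genes numbered 14 without WT replicate 2 and the higher genes 9 without WT replicate 1. Of 40 proteasome subunits 16 were lower and 4 higher (40% and 10%, median −0.36). Psmb5, a catalytic subunit, was at the floor in KO and at 8.19 and 11.9 FPKM in WT. Psma3 measured 3.29 and 2.11 FPKM in KO and 13.3 and 17.1 in WT (−2.14 ± 0.21). Of 38 nucleotide and one-carbon enzymes 13 were lower and 5 higher (34.2% and 13.2%, median −0.32). Uck2, a uridine-cytidine kinase, was at 3.01 and 2.82 FPKM in KO and 23.7 and 22.4 in WT (−2.62 ± 0.15). The higher enzymes of this list numbered 2, 2 and 3 without KO replicate 2, WT replicate 1 and WT replicate 2. Of 35 glycolysis and citric acid cycle enzymes 8 were lower and 4 higher as deposited, and 8 and 9 on the centred scale. The deposited shares of 22.9% and 11.4% were near the 19.4% and 12.2% of genes above the floor in at least 1 2-cell library. Mdh2, mitochondrial malate dehydrogenase, measured 1.19 and 1.74 FPKM in KO and 16.3 and 14.4 in WT (−2.74 ± 0.21, adjusted p = 2.77e-05). The lower genes of the last list numbered 5 without KO replicate 1, KO replicate 2 or WT replicate 1 and 4 without WT replicate 2, and the higher genes 1 without KO replicate 2 and 2 without WT replicate 1.

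Of 20 lineage regulators 2 were higher and 4 lower, and 2 and 2 on the centred scale. The deposited shares of 10% and 20% were near the 12.2% and 19.4% of genes above the floor in at least 1 2-cell library. Klf5, a transcription factor of the early embryo, was at the floor in both KO libraries and at 4.32 and 3.81 FPKM in WT. Of 28 p53 targets and BCL2 family genes 10 were lower and 1 higher (35.7% and 3.57%, median −0.14). Cdkn1a, a cell cycle inhibitor induced by p53, was at the floor in KO and at 2.99 and 4.203 FPKM in WT, with a call that ended in the fit of 4 libraries (adjusted p = 0.0659). Of 28 early-response and heat-shock genes 6 were lower (21.4%, near the share of genes above the floor) and 0 higher as deposited, and 6 and 3 on the centred scale. The fit of 4 libraries called 0 of these, and the lower ones numbered 3 without KO replicate 2 and 2 without WT replicate 2. Of the early-response genes 1 was called higher without KO replicate 1 or WT replicate 2. Lower lineage regulators numbered 2 without WT replicate 2 and higher ones 1 without KO replicate 1 or either WT library, and the 1 higher p53-list gene was not called without KO replicate 1, KO replicate 2 or WT replicate 1. Of 18 genes often used as references 8 were lower (44.4%) and 0 higher. Among the lower ones was the ribosomal protein gene Rplp0, at 22.4 and 20.6 FPKM in KO and 78.2 and 72.02 in WT (−1.76 ± 0.18). The lower reference genes numbered 5, 4, 5 and 4 without KO replicate 1, KO replicate 2, WT replicate 1 and WT replicate 2.

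Markers of other cells were at most 2.70 FPKM as deposited in the 4 libraries, except Odf2 at 7.72 and 7.11 FPKM in KO and 5.48 and 5.13 in WT. Since the floor stood at 7.68 to 8.61 FPKM before the library factor, low levels of such markers could go unseen. Of 8 markers of cumulus and granulosa cells 5 lay at the floor throughout, and the list summed to 8.22 and 8.65 FPKM in KO and 9.12 and 10.6 in WT. The sums of 4 sperm markers were 10.7 and 10.1 FPKM in KO and 9.02 and 8.86 in WT, of which most was Odf2, called higher on the centred scale (adjusted p = 0.0312) and not as deposited (adjusted p = 0.199). The sums of 7 blood and immune markers were 9.20 and 9.02 FPKM in KO and 7.18 and 7.36 in WT, where the floor alone gives 7. Lyz2, the macrophage lysozyme, was called higher at 2.33 and 2.704 FPKM in KO and the floor in WT, and Nr5a2 was called lower, at the floor in KO and 1.97 and 2.51 FPKM in WT. Nr5a2 is also a transcription factor of the early embryo. Both calls ended in the fit of 4 libraries (adjusted p = 0.0581 and 0.0786), and 2 blood markers were higher without KO replicate 2 and 2 cumulus markers lower without WT replicate 1.

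Oocyte levels, which the KO and WT 2-cell libraries did not set, differed between the called groups. Higher genes had a median WT GV level of 66.6 FPKM, and 84.1% were at 20 FPKM or more, against 9.58 FPKM and 34.7% over all genes. Lower genes had a median of 17.3 FPKM with 47.4% at 20 FPKM or more, and 12.97% were at the floor in both WT oocyte libraries, against 1.52% of higher genes and 5.65% of all genes. Uncalled genes above the floor in at least 1 2-cell library had a median of 18.2 FPKM, with 47.3% at 20 FPKM or more and 4.84% at the oocyte floor. Lower genes were thus close to these in median level and differed in the share at the floor. Sorted by oocyte level, 27.2% of the 1176 genes at 100 FPKM or more were higher and 20.9% lower. Of the 638 genes at the floor in oocytes 2.04% were higher and 27.6% lower. In the classes between, the higher genes made up 14.5%, 3.41% and 0.370% and the lower genes 14.5%, 9.54% and 6.55% at 20 to 100, 5 to 20 and under 5 FPKM. Low classes could hold few calls, because 36.1% and 74.95% of the last 2 classes were at the floor in all 4 2-cell libraries.

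The called shares also differed with the decline of a transcript in WT from the oocyte to the 1-cell embryo. Among genes at 20 FPKM or more in WT oocytes, 12.1% of the 536 that fell at least 16-fold by the WT 1-cell stage were higher in KO 2-cell embryos and 36.2% were lower. Of the 2020 that fell 4- to 16-fold, 16.4% were higher and 17.1% lower. Of the 1363 that fell less than 4-fold, 23.6% were higher and 7.63% lower. The falls are on the deposited scale and include the factors of 0.269 and 0.212 of the WT 1-cell libraries, without which every fall would be smaller. These shares are descriptions over genes and carry no test.

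**Figure D4:**
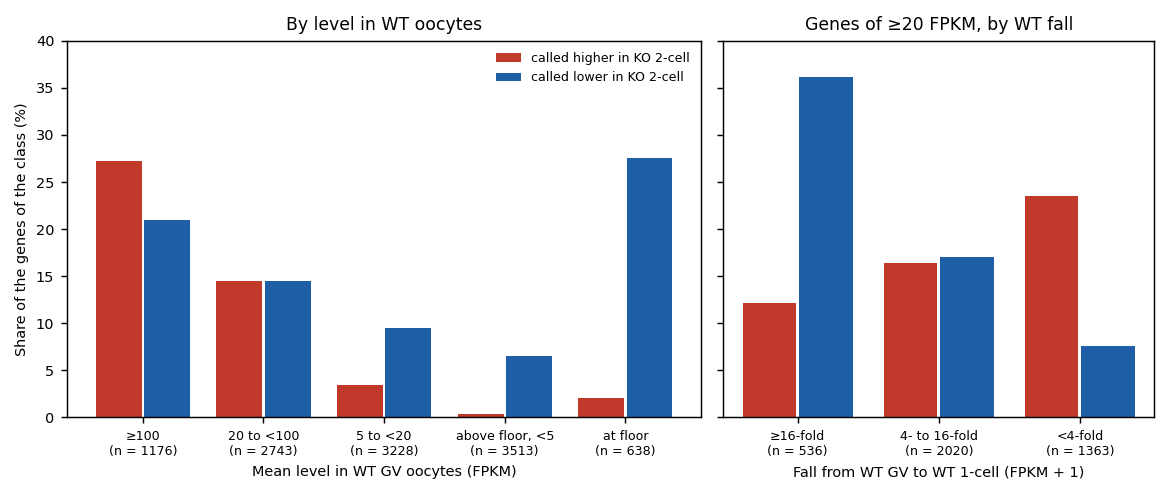
Share (%) of genes called higher (red) or lower (blue) in KO 2-cell embryos, by mean FPKM in WT GV oocytes (left) and, for genes of at least 20 FPKM there, by the fall of FPKM + 1 from WT GV to WT 1-cell (right); n is the number of genes. Higher genes fall from 27.2% to 0.370% from the highest oocyte level to the lowest above the floor, lower genes peak at 27.6% among genes at the floor, and on the right 36.2% of the genes with the largest fall are lower.

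Compared with 1-cell embryos on the centred scale, where 643 genes were higher in KO (5.69%) and 430 lower (3.81%), the sets overlapped in part. Of the 643, 241 were also higher at the 2-cell stage, or 37.5% of the 1-cell set and 19.8% of the 1215 of the 2-cell set, beside 10.8% of all genes. Another 96 (14.9% of the 1-cell set and 6.23% of the 2-cell set) were lower, beside 13.6% of all genes. Of the 430, 96 (22.3% and 6.23%) were also lower, beside 13.6% of all genes, and 36 (8.37% and 2.96%) higher, beside 10.8%. All 1215 higher and 1542 lower genes were among the 6980 above the floor in at least 1 2-cell library, as were 573 of the 643 and 334 of the 430. The shares of all genes are thus too low a background. The overlap shares, taken over all 643 and all 430, are lower than over the genes above the floor as well. No excess was tested. The KO effect at the 2-cell stage differed from that at the 1-cell stage for 828 genes upward (7.33%) and 1263 downward (11.2%), by a test of the difference itself. Upward calls numbered 518 and 443 when WT replicates 1 and 2 were left out in turn. On the deposited scale, where the 1-cell libraries carry unequal factors, the same test called 27 upward and 4028 downward. Dazl, named for its large 2-cell change, was one that diverged late. Its log2 difference was −0.17 at the 1-cell stage and 2.77 at the 2-cell stage (difference 2.94, adjusted p = 0.000656). Lsm5 and Tm2d1 were already higher by 3.16 and 3.42 at the 1-cell stage, and their difference between stages did not pass the test (1.099, adjusted p = 0.155, and 0.65, adjusted p = 0.427).

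Transcripts of higher and lower genes differed in base composition and length. Of the called genes, 94.5% of higher and 94.5% of lower genes could be matched by symbol to a GENCODE transcript. Median GC content was 44.8% in higher genes, 50.8% in lower genes and 49.4% in genes above the floor that were not called. The median 3′ UTR was 776 bases long in higher and 567 in lower genes, against 927 in those not called, and median transcript length was 2300, 1962 and 2816 bases. A cytoplasmic polyadenylation element, TTTTAT or TTTTAAT, was in the 3′ UTR of 66.8% of higher, 49.7% of lower and 61.9% of uncalled genes. Within genes of at least 20 FPKM in WT oocytes the same order held. Median GC content was 44.7% in higher, 51.3% in lower and 49.6% in uncalled genes, and an element was in 65.2%, 41.9% and 59.1%. There the median 3′ UTR was 742, 359 and 770 bases long and the median transcript 2173, 1513 and 2424 bases. The 3′ UTR of higher genes was thus close in length to that of uncalled genes. Longer 3′ UTRs hold such short motifs more often, and GC content can affect Smart-seq2 amplification, a part that was not tested.

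**Figure D5:**
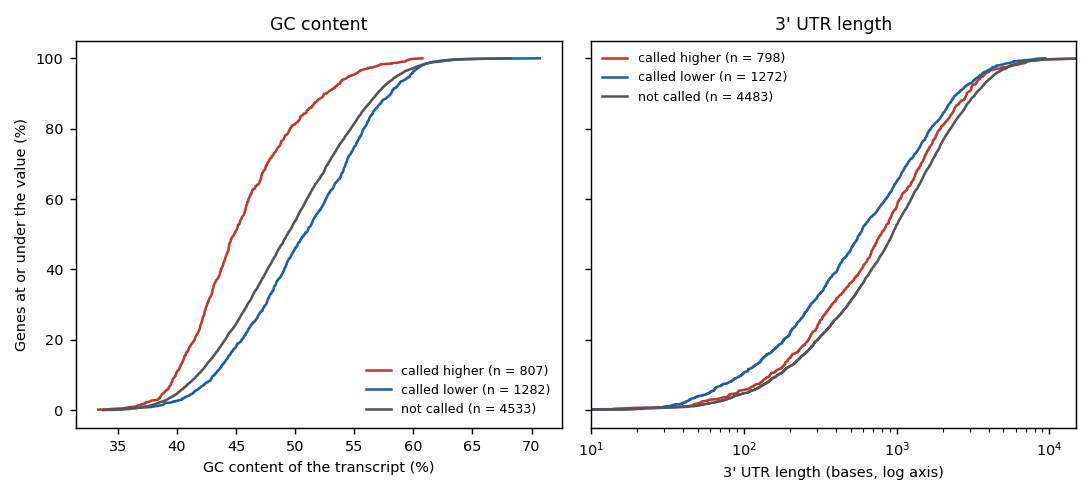
Cumulative share (%) of genes called higher (red), lower (blue) or not called (grey, above the floor in at least 1 2-cell library) by GC content of the transcript (left, %) and length of the 3′ UTR (right, bases, log axis). The curve of higher genes lies at lower GC content (median 44.8%, against 50.8% for lower genes), and that of lower genes at shorter 3′ UTRs (567 bases, against 776).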

How the data were processed

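RNA of 12 libraries, 2 for each of 6 groups, was measured by Smart-seq2. Reads were processed by the authors with TopHat2 (2.1.1), Cufflinks (2.2.1) and build mm9, per the submitters' processing notes, which give no order or role. The deposited table holds FPKM values, rounded to 6 significant digits, with a lowest value of 1. It runs in alphabetical order and stops at Zc3h14, so later genes were not analysed here, and its last entry, with 1 of 12 values, was left out. Every embryo value above the floor was a 6-digit number times a factor of its library (tolerance 0.01, factor to 9 decimals), which puts the floor before that factor at 7.68 to 8.61 FPKM in 2-cell libraries. No read depth is known, so no counting interval is given.

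Differences were tested on log2(FPKM + 1) with limma (3.58.1, R 4.3.3), a mean trend and Benjamini-Hochberg adjustment over 11298 genes, at an adjusted p under 0.05. All 12 libraries entered a fit of 6 group means, as deposited and with libraries centred within each stage. A fold change on this scale understates the change of low genes. The script was tested on simulated data. Gene lists, 30 in all, and members were chosen with earlier results of these data known. The text names Pabpn1l, Btg4, Sp110 and Nme2, the 10 genes per direction with the largest change and a mean of at least 10 FPKM in the higher group, the 5 most abundant at least 2-fold changed genes per direction, and up to 4 called members per list, of which some are not reported here. Same-numbered libraries did not deviate together (r = −0.25 at the 2-cell stage, −0.08 at the 1-cell stage and 0.17 in GV oocytes), so numbers were not taken as pairs. Promoters and transcripts came from RefSeq (GRCm38.p6) and GENCODE tables and were used only by gene symbol, since their build is not that of the values. Python (3.11.15), pandas (2.3.3) and matplotlib (3.10.9) were used for tables and plots.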

Additional observations from a re-analysis of the deposited data

Results flagged for a closer look

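Each result below was selected because the KO effect at the 2-cell stage differed from that at the 1-cell stage by a test of the difference (limma, centred scale, adjusted p under 0.05), among the genes named for their role or for the size of their 2-cell change. The value is the 2-cell minus the 1-cell difference between KO and WT on the log2 scale. Genes named for size were chosen by their change in the same 2-cell libraries that enter this test. A difference between stages was thus favoured by the choice, and its adjusted p is only descriptive. Pabpn1l itself gave 2.96 ± 0.30 (SE, adjusted p = 0.000519), with a 1-cell difference of −2.75 and levels at or near the floor at the 2-cell stage.

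Btg4 gave 1.36 ± 0.33 (adjusted p = 0.0250), and 0.14 on the deposited scale (adjusted p = 0.879). Plac1l gave 2.82, 7420461P10Rik 2.24, Pdcd6 2.30 and Lgsn 1.65, and of these Pdcd6 (1.15, adjusted p = 0.0851) and Lgsn (0.50, adjusted p = 0.225) did not pass on the deposited scale. Among lower genes, the difference was −2.08 for Sp110, −4.03 for Nme2, −3.65 for Cdk2ap1 and −4.48 for Snrpc. For genes at or near the floor in 1-cell embryos of both genotypes it was −4.42 for Gm11517, −4.02 for Cd63, −3.65 for Obox3, −3.62 for Gm4850, −3.60 for Guca1a and −3.35 for H47. In these the difference is that of the 2-cell stage alone.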

How the results depend on the processing

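Of the 127 named genes that were called, 0 reversed under any alternative run. Most were named because they were called, many with a large change on both scales, so this agreement was partly built in. All 127 were called under median-ratio, quantile and before-factor scaling, a pseudocount of 0.1, the filter on the floor and a fit without trend, 126 on the centred scale, 121 with a pseudocount of 5, 119, 115, 114 and 106 without KO replicate 1, KO replicate 2, WT replicate 1 and WT replicate 2, and 67 when only the 4 2-cell libraries were fitted. Counts over all genes moved in several runs, and the cause was not tested unless fewer samples or genes entered. As deposited, 854 higher and 1357 lower genes became 2971 and 2156 under quantile normalization, 354 and 595 with 4 libraries, 511 higher with a pseudocount of 5, 483 lower at a mean of at least 5 FPKM, and 464 to 581 higher and 834 to 1214 lower with 1 library left out. Centred, 1215 higher genes became 797 with a pseudocount of 5, 778 at a mean of at least 5 FPKM, 576 with 4 libraries and 792 to 1041 with 1 left out, and 1542 lower genes became 494 at that mean, 970 with 4 libraries and 1190 to 1295. For the difference between stages, 828 upward became 494 with a pseudocount of 5, 27 on the deposited scale and 443 to 704 with 1 left out, and 1263 downward became 4028 on the deposited scale and 983 to 1123. With the replicate number as a block, 486 genes were higher and 992 lower; since the numbers correlated at −0.25, a crossed block was added after seeing the data and gave 602 and 1137. Without known depth, genes near the floor cannot be resolved.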

Other observations

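Gene families outside the lists above were counted after their values had been seen, so their counts are descriptions. The 4 measured genes of the ATG8 family, whose proteins are coupled to autophagosome membranes, were each lower in KO, with a median log2 fold change of −2.59. Map1lc3b measured 10.9 and 6.62 FPKM in KO and 65.8 and 90.7 in WT (−3.04 ± 0.27, limma adjusted p = 7.27e-05). Gabarapl2 measured 5.42 and 3.51 FPKM in KO and 34.6 and 43.2 in WT (−2.88 ± 0.23, adjusted p = 3.44e-05). Map1lc3a measured 1.82 and 1.395 FPKM in KO and 11.5 and 11.9 in WT (−2.29 ± 0.18), and Gabarap 4.201 and 1.66 and 11.2 and 13.6 (−1.84 ± 0.29). KO and WT did not overlap in these 4 genes, and each stayed called with any 1 library left out. Of 13 genes of the oocyte Fbxw cluster, close paralogs of an F-box gene, 11 were higher and 0 lower, with a median of 0.87; Fbxw15 measured 21.2 and 22.3 FPKM in KO and 8.15 and 9.704 in WT (1.20 ± 0.22).

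Over all genes 12% were lower and 7.56% higher, and over genes above the floor in at least 1 2-cell library 19.4% and 12.2%. The following counts are to be read against both. Of 76 mitochondrial ribosomal proteins 21 were lower and 6 higher, or 27.6% and 7.89% (median −0.24), with Mrps6 at 1.81 and 1.001 FPKM in KO and 9.57 and 15.8 in WT (−2.49 ± 0.26). Of 20 subunits of the protein import translocases 8 were lower and 3 higher, or 40% and 15% (median −0.50), with Tomm5, of the outer membrane complex, at 3.42 and 1.73 FPKM in KO and 21.9 and 26.8 in WT (−2.86 ± 0.22). Of 8 subunits of the CCT chaperonin, which folds actin and tubulin, 4 were lower and 1 higher, with Cct3 at 2.33 and 1.76 FPKM in KO and 8.79 and 10.9 in WT (−1.83 ± 0.25). Sumo2, a ubiquitin-like modifier, measured 4.08 and 3.27 FPKM in KO and 26.8 and 39.4 in WT (−2.85 ± 0.21).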
